A study of Rattus norvegicus with 18 samples.

Results

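Neutrophil granule protein genes were followed in rat blood as 10 members named by their symbols. These were the azurophil granule genes Mpo, Elane, Prtn3 and Ctsg, the defensins RatNP-3b and Np4, and the specific granule genes Camp, Ltf, Lcn2 and Mmp8. They were chosen with earlier results of these data known, so counts of members set against all genes are descriptive. A probe was assigned to a member where the array's transcript accession belonged to that gene in RefSeq. That found 9 of the 10 members, among 15443 genes with a named probe, and no probe was matched to Mpo, so the myeloperoxidase gene was not analysed here. Each of the 9 genes had 1 probe, which was well above background on all 18 arrays and saturated on none.

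The blood came from male rats, was drawn from the venous sinus of the eye at the end of treatment, and gave total RNA. Brown Norway (BN) rats received sterile water (4 control arrays) or procainamide at 40 mg/kg (4 arrays), and Sprague Dawley (SD) rats received sterile water (5 arrays) or procainamide at 40 mg/kg (5 arrays). Procainamide is an antiarrhythmic drug known for inducing lupus-like autoimmunity. The labels give no age, length of treatment or route, and do not say how many animals stand behind a replicate, so each p-value here is set against the variation among these arrays only, which may be technical. Each sample was labelled with Cy5, a red dye, and hybridised together with a Cy3-labelled reference. By the labels that reference was control replicate 1 of the same strain, a single RNA for each strain. The strain comparison therefore used the log2 Cy5 signal, and the drug comparison used the log2 ratio of Cy5 to Cy3.

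Granules are made in waves while a neutrophil matures in the bone marrow. Azurophil granules form first and hold myeloperoxidase, serine proteases and, in rats, alpha-defensins. Specific and gelatinase granules follow and hold lactoferrin, lipocalin-2, the cathelicidin precursor and collagenases. The messenger RNA for the earliest proteins is largely gone from mature circulating neutrophils, so in blood it marks immature cells of the lineage. Myeloperoxidase in activated neutrophils is known to oxidise procainamide to reactive metabolites. In whole blood, fewer cells of a type and less RNA per cell cannot be told apart.

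The defensin promoters are shown because RatNP-3b and Np4 moved together more closely than any other pair of these genes, and the Ctsg promoter because this protease gene had one of the widest strain differences. The sequences are RefSeq's, on the GRCr8 build, read 5′ to 3′ on the minus strand toward the gene. Capitals mark matches to the motif letters TTNNGCAA (C/EBP), GAGGAA (PU.1) or TAACNG (Myb), factors known in granulocyte development, searched on both strands.
RatNP-3b, chr16:77248978-77249227: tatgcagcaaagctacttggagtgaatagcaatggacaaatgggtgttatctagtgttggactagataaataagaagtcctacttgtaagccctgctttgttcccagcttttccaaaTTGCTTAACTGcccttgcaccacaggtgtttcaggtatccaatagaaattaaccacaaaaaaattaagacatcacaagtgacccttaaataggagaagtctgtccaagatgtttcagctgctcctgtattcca
Np4, chr16:77199714-77199892: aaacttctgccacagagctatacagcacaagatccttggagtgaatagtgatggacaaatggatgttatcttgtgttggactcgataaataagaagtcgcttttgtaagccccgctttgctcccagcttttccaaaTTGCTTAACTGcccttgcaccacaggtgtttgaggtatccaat
Ctsg, chr15:33907597-33907846: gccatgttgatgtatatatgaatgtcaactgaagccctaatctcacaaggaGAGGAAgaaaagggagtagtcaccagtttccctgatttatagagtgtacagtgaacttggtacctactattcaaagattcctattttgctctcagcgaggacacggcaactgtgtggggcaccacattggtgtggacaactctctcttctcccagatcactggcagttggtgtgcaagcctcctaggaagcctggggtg
The RatNP-3b and Ctsg stretches run up to the annotated start, and the Np4 stretch of 179 bases stops 72 bases before it, where the annotated gene span begins. Over the full windows of 250 bases the defensin promoters were 78.8% identical. Both held the same run, in which a C/EBP match on the opposite strand and a Myb match overlap, 133 and 128 bases before the start in RatNP-3b and 114 and 109 bases before it in Np4. Among the 9 members with a promoter in the table, Mpo included and Elane not, 4 held a C/EBP match, 3 a PU.1 match and 3 a Myb match. The windows of Mpo and Prtn3, which each held a PU.1 match, lie inside the annotated gene span. Those of Lcn2 and Mmp8, like that of Np4, reach into it. The same motifs occurred in 9.22%, 23.3% and 20.3% of 33469 windows of this length. In the same annotation Elane and Prtn3 are neighbours on chromosome 7, and the defensin gene Defa11 lies between Np4 and RatNP-3b on chromosome 16.

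Arrays sat on 3 slides, and slide followed the groups. All 5 SD control arrays shared slide 1 with 3 arrays of treated SD rats. The remaining 2 treated SD arrays shared slide 2 with all 4 BN controls. Slide 3 carried treated BN rats only, on 4 arrays. Slide 2 was scanned on another day than slides 1 and 3. The median raw Cy5 signal of an array ranged from 997 to 3187, and 73.5% to 87.2% of probes were well above background. Blood cell markers were measured as listed: 7 of 9 erythroid, 8 of 8 T cell, 5 of 7 B cell, 7 of 8 platelet and 15 of 17 mature neutrophil genes had a tested probe. BN procainamide replicate 1 stood apart from its group in several granule genes, and values without it are given where it moved a result.

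In untreated rats, most of the granule genes tested were higher in BN than in SD blood when scan day was left out of the model. Of the 9 genes, 7 differed and all 7 were higher in BN, by 2.06-fold to 3.75-fold, while Ltf and Mmp8 did not pass the test. Over all 13652 named genes tested, 36.8% differed between the control groups, 16.3% higher and 20.5% lower in BN. For 6 of the 9 genes, every BN control array lay above every SD control array, against 14.8% of all genes in that direction and 19.8% in the other. The median difference, BN minus SD, was 1.12 on the log2 scale for the 9 genes and -0.06 for all named genes.

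**Figure D1:**
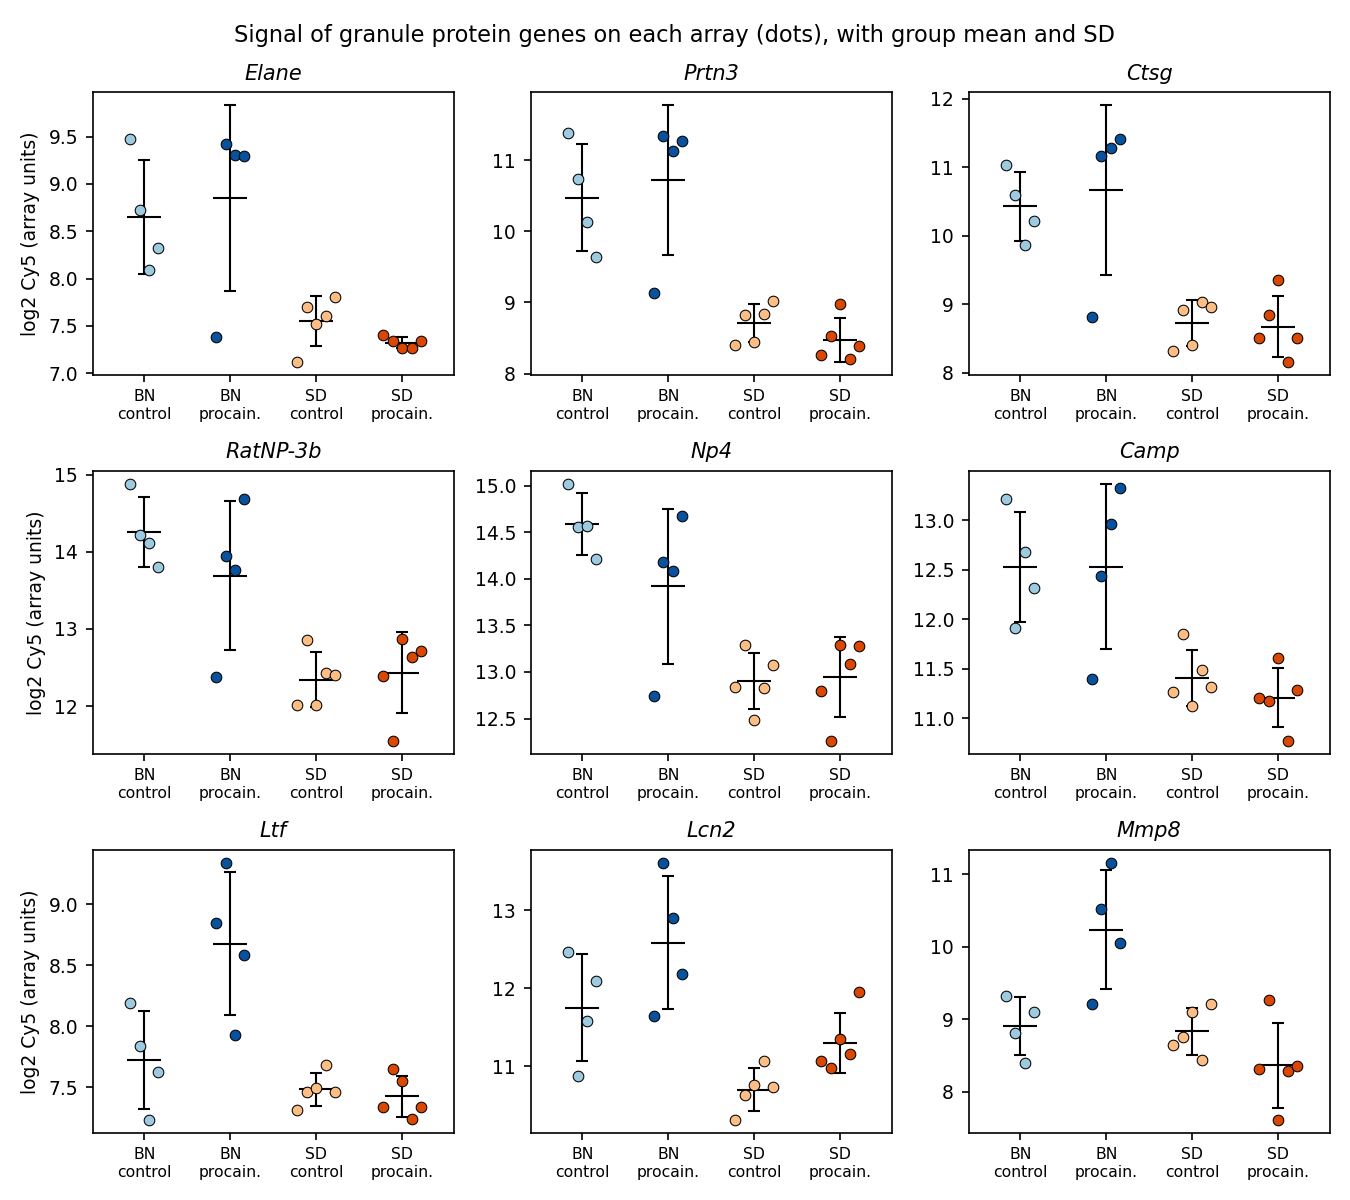
Each panel plots the log2 Cy5 signal of 1 gene (vertical axis, array units after normalization) on every array, as dots grouped by strain and treatment, with the group mean and SD as black bars. Both BN group means lie above both SD group means in all 9 panels, and 1 BN procainamide array lies far below the other 3 in Elane, Prtn3 and Ctsg.

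The azurophil proteases were the serine proteases of this set. Elane encodes neutrophil elastase, which degrades elastin and bacterial proteins. In BN controls its log2 Cy5 was 9.47, 8.72, 8.09 and 8.32, and in SD controls 7.12, 7.70, 7.52, 7.60 and 7.81. The groups did not overlap, and the difference was 1.10 ± 0.34 (log2, SE; 2.14-fold; adjusted p = 0.0168).

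Prtn3 encodes proteinase 3, a close relative of elastase and a known autoantigen in vasculitis. Its BN controls read 11.38, 10.73, 10.13 and 9.64 on the log2 Cy5 scale, against 8.40, 8.83, 8.45, 8.84 and 9.02 in SD controls. All BN values were above all SD values, with a difference of 1.77 ± 0.39 (SE; 3.40-fold; adjusted p = 0.00214). Ctsg encodes cathepsin G, a chymotrypsin-like protease of the same granules. It read 11.04, 10.60, 9.87 and 10.22 in BN controls and 8.32, 8.92, 8.41, 9.03 and 8.96 in SD controls. Again the groups were separate, and the difference was 1.70 ± 0.42 (SE; 3.26-fold; adjusted p = 0.00456).

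The defensins had the same direction and the smallest p-values of the set. RatNP-3b encodes a rat neutrophil alpha-defensin, a cationic peptide that disrupts microbial membranes. Its log2 Cy5 was 14.88, 14.22, 14.12 and 13.80 in BN controls and 12.01, 12.86, 12.01, 12.43 and 12.41 in SD controls, a gap with no overlap. BN was higher by 1.91 ± 0.36 (SE; 3.75-fold; adjusted p = 0.000757). Np4, a second neutrophil defensin, read 15.02, 14.56, 14.57 and 14.21 in BN controls against 12.84, 13.29, 12.48, 12.83 and 13.08 in SD controls. These groups were also separate, and Np4 was higher in BN by 1.69 ± 0.31 (SE; 3.22-fold; adjusted p = 0.000552). The rat alpha-defensin genes are related copies, so a probe of one may bind RNA of another. Probe sequences were not compared, and the defensin values given in this text may not be independent.

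The specific granule genes split. Camp encodes the cathelicidin precursor of an antimicrobial peptide, and read 13.21, 11.91, 12.68 and 12.31 in BN controls and 11.26, 11.85, 11.12, 11.49 and 11.31 in SD controls. The lowest BN value just cleared the highest SD value, and BN was higher by 1.12 ± 0.31 (SE; 2.18-fold; adjusted p = 0.0101). Lcn2 encodes lipocalin-2, which binds bacterial siderophores. Its BN controls read 12.46, 10.87, 11.58 and 12.09, against 10.31, 10.63, 10.76, 11.07 and 10.73 in SD controls. One BN array fell inside the SD range, and the difference was 1.04 ± 0.35 (SE; 2.06-fold; adjusted p = 0.0250).

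Ltf encodes lactoferrin, an iron-binding protein, and Mmp8 encodes neutrophil collagenase. Ltf read 8.19, 7.84, 7.23 and 7.62 in BN controls and 7.31 to 7.68 in SD controls, and the groups overlapped. Its difference was 0.24 ± 0.22 (SE; 95% interval -0.22 to 0.70; adjusted p = 0.402). Mmp8 read 9.32, 8.81, 8.39 and 9.10 in BN controls and 8.44 to 9.21 in SD controls, almost the same range. Its difference was 0.07 ± 0.34 (SE; 95% interval -0.64 to 0.79; adjusted p = 0.878).

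In the controls strain was fully tied to scan day and slide. The control difference was also fitted with scan day as a term, which only the SD procainamide arrays, on slides 1 and 2, separate from strain. All 9 genes stayed higher in BN, but 0 passed at an adjusted p under 0.05 by limma, with 1.40% of all probes called against 38.5% without the term. The differences were then 2.28 ± 0.71 for Ctsg (SE; adjusted p = 0.143), 2.06 ± 0.68 for Prtn3 (0.163) and 1.50 ± 0.62 for RatNP-3b (0.291), about as large as before with wider errors. Lcn2 fell from 1.04 to 0.63. Without BN control replicate 1, Elane at 0.83 (adjusted p = 0.0619) and Lcn2 at 0.81 (0.0840) no longer passed, and 5 genes did, with 38.8% of all probes called. Lcn2 also failed without BN control replicate 4 (adjusted p = 0.0726) or SD control replicate 1 (0.0580).

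The Cy3 channel gave a second view of untreated blood, on the same slide. On slide 2 the BN reference RNA was read on 4 arrays and the SD reference RNA on 2 arrays. Within that slide the log2 Cy3 signal of the BN reference exceeded that of the SD reference by 2.11 for Ctsg, 2.10 for RatNP-3b, 2.09 for Prtn3, 1.83 for Np4, 1.52 for Camp and 1.37 for Elane. Lcn2, Ltf and Mmp8 differed less, by 0.71, 0.65 and 0.17. Each reference is 1 RNA, so no test applies, and by the labels these RNAs are also in the control groups. The BN reference of Elane itself read 8.78 ± 0.13 (SD, 4 arrays) on slide 2 and 9.42 ± 0.15 (SD, 4 arrays) on slide 3.

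On 1 array of each strain both channels hold, by the labels, the same RNA. On BN control replicate 1 all 9 genes nevertheless had a log2 ratio above 0, with a median of 0.55, and 6 of the 9 exceeded 0.5. Lcn2 read 1.02, Prtn3 0.72 and Np4 0.70 there. Over all named genes the median ratio of that array was 0.00, and 13.8% lay beyond 0.5 in either direction. On SD control replicate 1 all 9 genes were below 0, with a median of -0.38 against 0.00 for all genes, and 3.49% of all genes lay beyond 0.5. Where these offsets come from was not tested.

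Under procainamide all 9 granule genes were higher in BN than in SD blood. The differences ran from 0.98 for Np4 (1.97-fold) to 2.25 for Prtn3 (4.76-fold), with a median of 1.32 against 0.02 for all named genes. Of all named genes 19.0% differed in this comparison, 9.47% higher and 9.56% lower in BN. Only Prtn3 and Ltf had groups with no overlap, against 6.94% of all genes in that direction and 6.91% in the other.

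**Figure D2:**
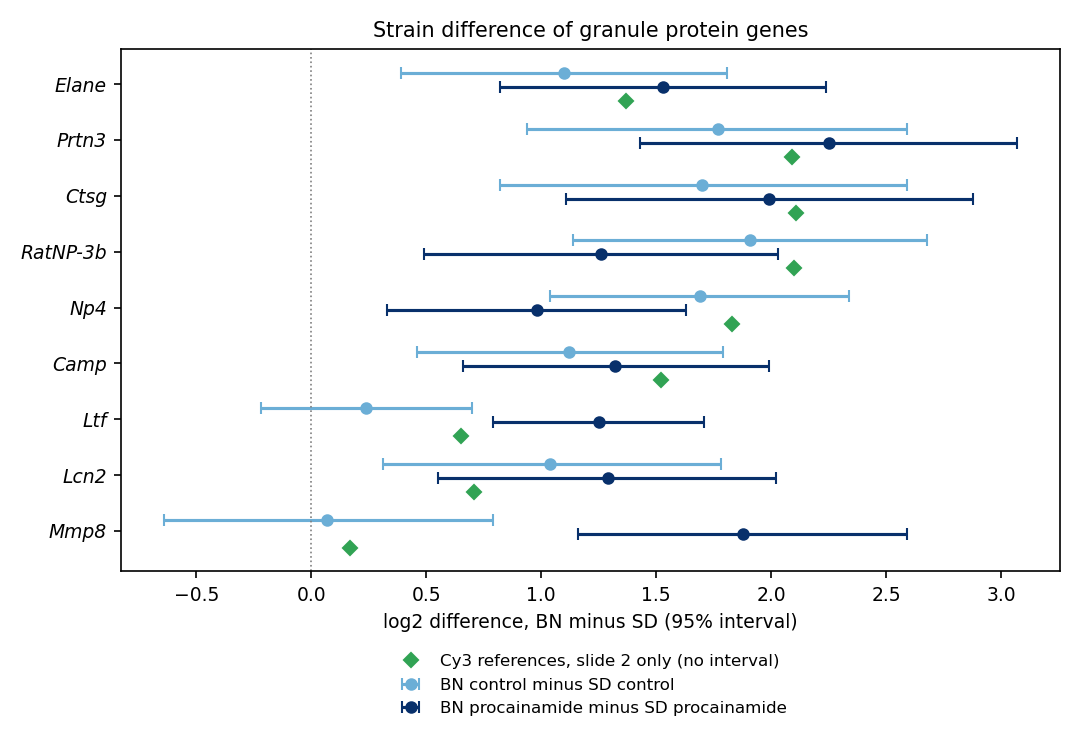
The horizontal axis is the log2 difference, BN minus SD, of each gene listed on the vertical axis, with light points for controls, dark points for procainamide groups and bars for the 95% interval of the limma fit. Green diamonds give the difference of the Cy3 reference RNAs within slide 2, with no interval, and Mmp8 moves from 0.07 in controls to 1.88 under procainamide.

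Among the proteases, Prtn3 read 9.14, 11.34, 11.13 and 11.27 in BN procainamide rats and 8.26, 8.53, 8.98, 8.21 and 8.39 in SD procainamide rats. Even the low BN array lay above the SD arrays, and the difference was 2.25 ± 0.39 (SE; adjusted p = 0.000955). Ctsg read 8.81, 11.17, 11.28 and 11.42 against 8.51, 8.85, 9.35, 8.16 and 8.51, so the first BN array fell among the SD arrays. Its difference was 1.99 ± 0.42 (SE; 3.98-fold; adjusted p = 0.00398). Elane read 7.38, 9.42, 9.31 and 9.30 against 7.40, 7.34, 7.27, 7.27 and 7.34. The first BN array again matched the SD level, and the difference was 1.53 ± 0.34 (SE; 2.88-fold; adjusted p = 0.00545).

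The genes that had not passed in the controls passed here. Ltf read 8.85, 9.34, 7.93 and 8.58 in BN procainamide rats and 7.34, 7.65, 7.55, 7.24 and 7.34 in SD procainamide rats. All BN values were higher, by 1.25 ± 0.22 (SE; 2.38-fold; adjusted p = 0.000980). Mmp8 read 9.21, 10.52, 11.16 and 10.06 against 8.31, 9.26, 7.61, 8.28 and 8.35. SD replicate 2 lay above the lowest BN array, and the difference was 1.88 ± 0.34 (SE; 3.67-fold; adjusted p = 0.00130).

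For Lcn2 the BN procainamide arrays read 11.65, 13.61, 12.90 and 12.18 and the SD procainamide arrays 11.07, 10.98, 11.35, 11.15 and 11.95. SD replicate 5 overlapped the lowest BN array, and the difference was 1.29 ± 0.35 (SE; 2.44-fold; adjusted p = 0.0165). Camp read 11.40, 12.44, 12.96 and 13.32 against 11.20, 11.17, 11.61, 10.77 and 11.28, and differed by 1.32 ± 0.31 (SE; 2.50-fold; adjusted p = 0.00825). The first BN array was again the one inside the SD range.

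The defensins, with Ltf, had the smaller strain differences under the drug. RatNP-3b read 12.38, 13.94, 13.77 and 14.68 in BN procainamide rats and 12.39, 11.55, 12.87, 12.64 and 12.71 in SD procainamide rats. Its difference was 1.26 ± 0.36 (SE; 2.39-fold; adjusted p = 0.0229). Np4 read 12.74, 14.18, 14.08 and 14.68 against 12.80, 12.26, 13.29, 13.09 and 13.28, and differed by 0.98 ± 0.31 (SE; adjusted p = 0.0336). In both, the first BN array lay within the SD range and the other 3 above it.

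When scan day entered the model, 8 of the 9 differences under procainamide still passed, between 1.16 for Ltf and 2.13 for Prtn3, and Np4 at 1.14 had an adjusted p of 0.0513. Of all probes 9.91% passed with the term, against 19.8% without it. Scan day 1 holds these BN arrays on slide 3 and 3 SD arrays on slide 1, so slide and strain cannot be told apart there. Without BN procainamide replicate 1 all 9 passed, with 21.9% of all probes called, and their median difference rose from 1.32 to 1.70. Leaving out single arrays otherwise kept 6 to 9 genes: without BN procainamide replicate 2, RatNP-3b, Np4 and Lcn2 missed the threshold (adjusted p = 0.0653, 0.0937 and 0.0653), and without BN procainamide replicate 4, RatNP-3b and Np4 did (0.0935 and 0.132). Np4 alone also missed it without BN procainamide replicate 3 or without SD procainamide replicate 1, 2 or 4 (adjusted p = 0.0728, 0.0568, 0.0704 and 0.0538). Over all single-array exclusions 12.2% to 21.9% of all probes were called.

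Ordered by group mean, both BN groups lay above both SD groups for each of the 9 genes. Within BN, procainamide rats ranked above controls for Elane, Prtn3, Ctsg, Ltf, Lcn2 and Mmp8 and below them for RatNP-3b and Np4, while Camp had a mean of 12.53 in both. Most of these neighbours did not differ beyond their spread. Elane, for example, averaged 8.85 ± 0.98 in BN procainamide rats and 8.65 ± 0.61 in BN controls (SD, n = 4 each), then 7.55 ± 0.27 in SD controls and 7.32 ± 0.05 in SD procainamide rats (SD, n = 5 each). For Mmp8 the BN procainamide group averaged 10.24 ± 0.82 (SD, n = 4), above 8.91 ± 0.40 (SD, n = 4) in BN controls, 8.83 ± 0.32 (SD, n = 5) in SD controls and 8.36 ± 0.59 (SD, n = 5) in SD procainamide rats.

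The drug response itself was taken from the ratio to the strain's own reference. In BN rats 0 of the 9 granule genes passed an adjusted p under 0.05 by limma, while 22.8% of all named genes did, 8.97% higher and 13.8% lower. For none of the 9 were the BN groups separate, against 8.18% of all genes separate upward and 11.8% downward. Unadjusted p-values under 0.05 were found for 3 of the genes, against at least the 22.8% of all named genes that passed after adjustment. The BN response could not be separated from slide, since all BN control arrays were on slide 2 and all BN procainamide arrays on slide 3. The standard errors of these genes were also wide, with a median of 0.40 against 0.13 over all named genes.

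**Figure D3:**
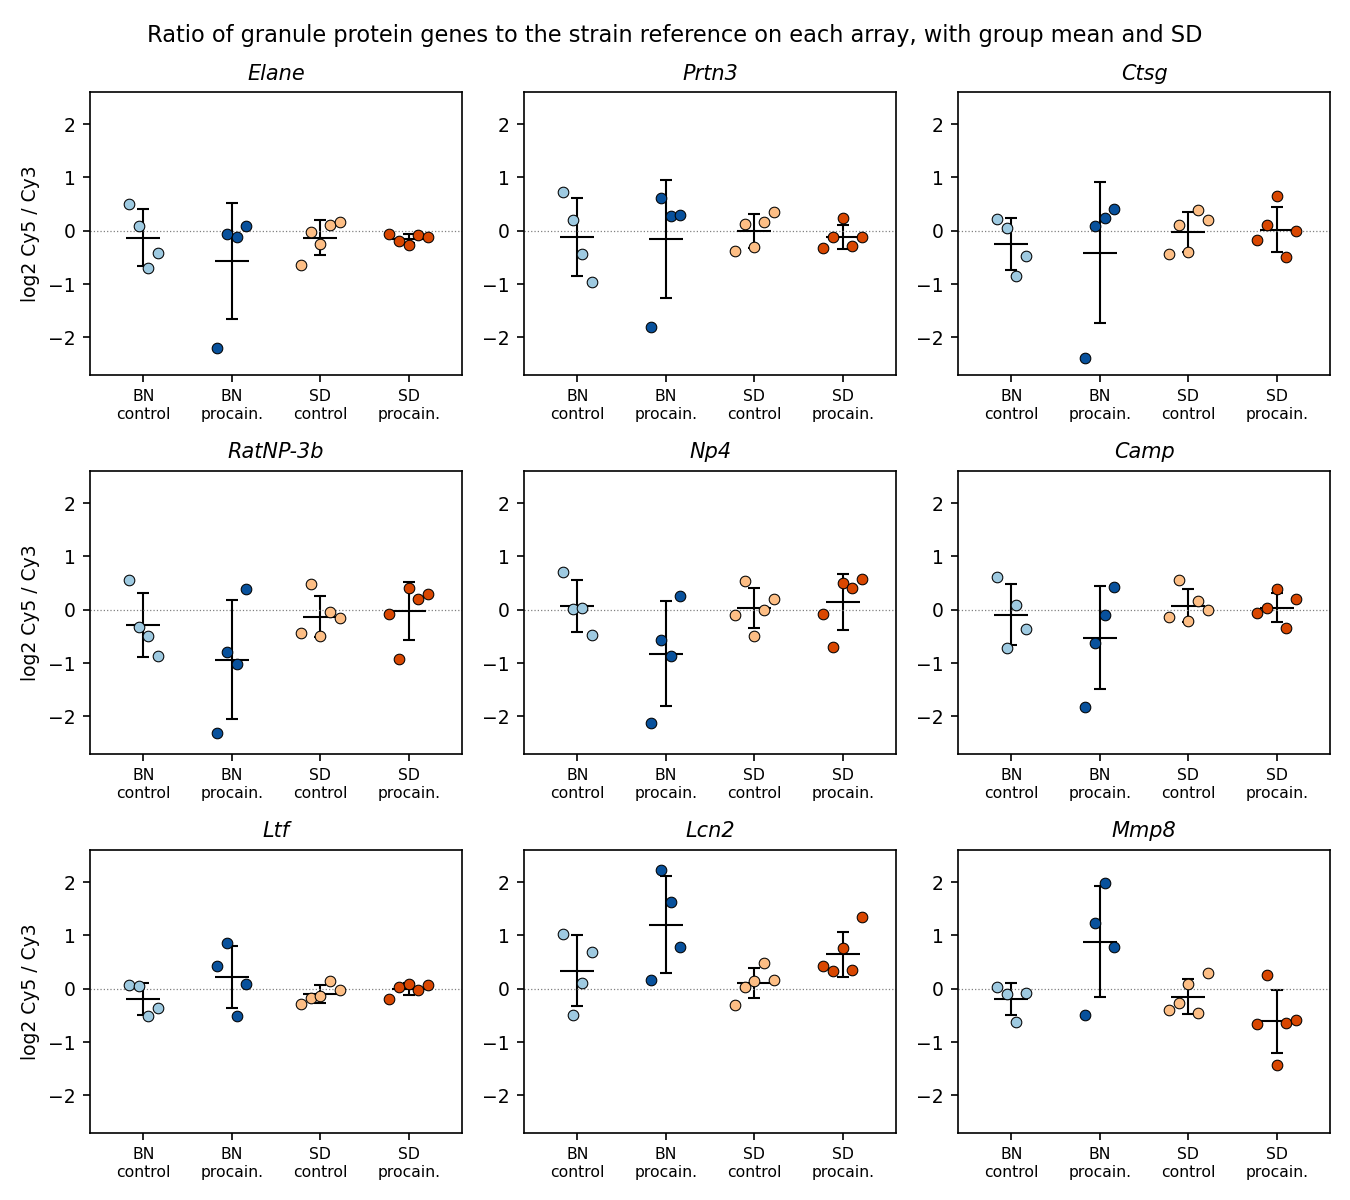
Each panel plots the log2 ratio of Cy5 to the strain's Cy3 reference (vertical axis, same scale throughout) for 1 gene on every array, with the group mean and SD as black bars. For Lcn2 the 4 BN procainamide arrays run from 0.16 to 2.22, and for Ctsg 1 of them is at -2.39 while the other 3 lie between 0.08 and 0.40.

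Mmp8 and Lcn2 had the highest BN values. Mmp8 ratios were 0.03, -0.10, -0.63 and -0.08 in BN controls and -0.49, 1.23, 1.99 and 0.78 in BN procainamide rats. Of the 4 treated arrays 3 were above every control and 1 was below all but the lowest, for a response of 1.08 ± 0.40 (log2, SE; 95% interval 0.24 to 1.91; adjusted p = 0.0611). With array brightness as a term it was 0.24 (adjusted p = 0.828). Lcn2 ratios were 1.02, -0.49, 0.11 and 0.69 in BN controls and 0.16, 2.22, 1.63 and 0.78 in BN procainamide rats. The groups overlapped, and the response was 0.87 ± 0.38 (SE; 95% interval 0.07 to 1.66; adjusted p = 0.113). In the same comparison the mature neutrophil markers had a median of 0.55, against -0.02 for all named genes. Of the 15 markers 2 were higher (Ncf1 at 0.55 and Fcgr3a, named after its value was seen, at 1.05; adjusted p = 0.00547 and 0.0161). A further 1 was lower (Fpr1 at -0.77; 0.00646), against 8.97% of all named genes higher and 13.8% lower. The part of these markers in the Mmp8 and Lcn2 values was not tested.

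The defensins had the lowest BN values, and these rested in large part on 1 array. Np4 ratios were 0.70, 0.01, 0.04 and -0.48 in controls and -2.12, -0.57, -0.86 and 0.26 in procainamide rats. Of the 4 treated arrays 3 were below every control, and the response was -0.89 ± 0.40 (SE; 95% interval -1.72 to -0.06; adjusted p = 0.118). Without BN procainamide replicate 1 it was -0.46 (adjusted p = 0.345). RatNP-3b ratios were 0.55, -0.32, -0.49 and -0.86 in controls and -2.32, -0.79, -1.02 and 0.39 in procainamide rats, which overlap. Its response was -0.65 ± 0.44 (SE; adjusted p = 0.307), and -0.19 (0.756) without that array.

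The proteases and Camp had BN responses near 0 or below, with intervals that hold sizeable changes in both directions. Prtn3 stood at -0.04 (95% interval -0.91 to 0.84), Ctsg at -0.16 (-1.13 to 0.81), Elane at -0.44 (-1.24 to 0.35) and Camp at -0.43 (-1.19 to 0.33). Ltf stood at 0.41 (-0.04 to 0.85; adjusted p = 0.181). Without BN procainamide replicate 1 the signs of the proteases turned, to 0.51 for Prtn3, 0.50 for Ctsg and 0.10 for Elane (adjusted p = 0.213, 0.202 and 0.787), and Camp was at 0.00.

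BN procainamide replicate 1 weighed on all of these values. On that array the log2 ratio was -2.39 for Ctsg, -2.32 for RatNP-3b, -2.20 for Elane, -2.12 for Np4, -1.82 for Camp and -1.80 for Prtn3. In the other 3 BN procainamide arrays Elane lay between -0.11 and 0.08, Prtn3 between 0.28 and 0.61 and Ctsg between 0.08 and 0.40. Ltf at 0.43, Lcn2 at 0.16 and Mmp8 at -0.49 were not low to that degree. Without this array Mmp8 reached 1.53 (adjusted p = 0.00301) and Lcn2 1.21 (0.0201) in the BN response, and the median over the 9 genes turned from -0.16 to 0.34. On the same array the mean log2 ratio was -2.08 over 6 eosinophil markers, -1.22 over 7 erythroid markers and -0.31 over 15 mature neutrophil markers, against 0.02 over 8 T cell markers. In the other BN procainamide arrays the mature neutrophil mean ran from 0.16 to 0.66, all above replicate 1, the eosinophil mean ran from -1.81 to -0.57 and the erythroid mean from -1.64 to -0.23, and the part of these lists in the granule values was not tested.

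**Figure D4:**
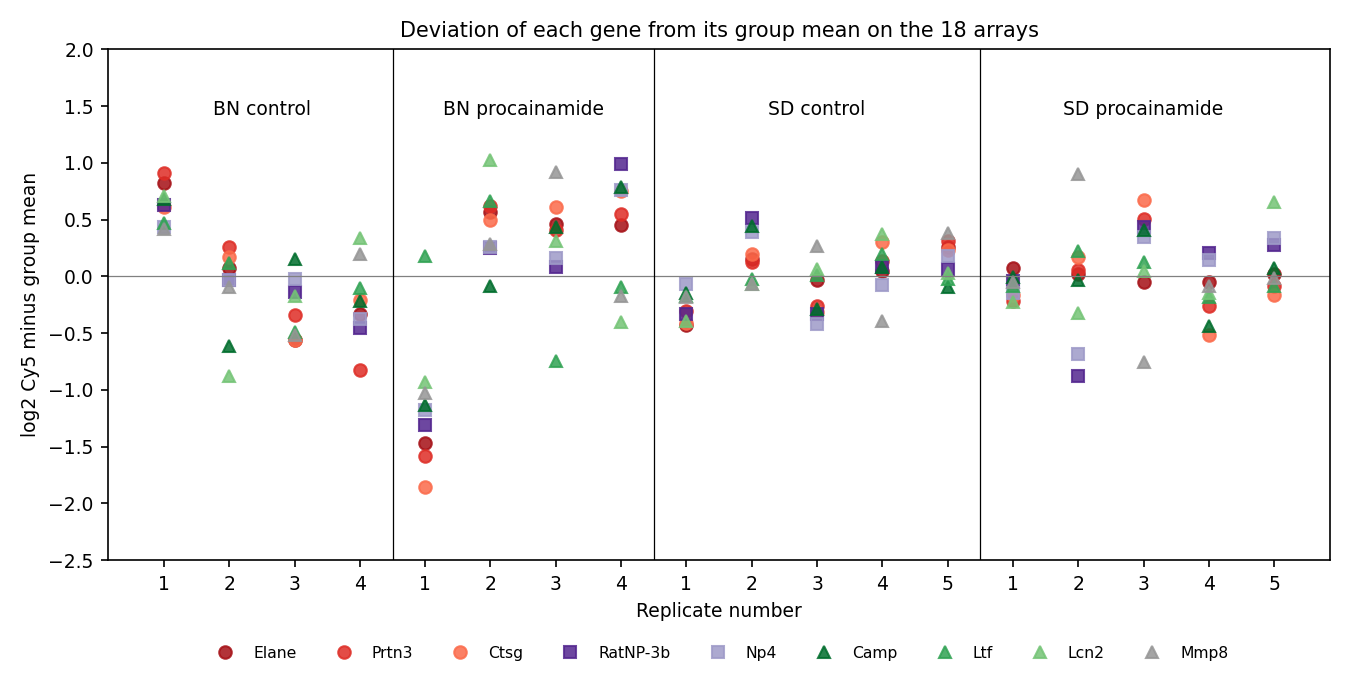
Each column is 1 of the 18 arrays, numbered by replicate within its group, and each symbol is the log2 Cy5 of 1 gene minus that gene's group mean (circles for proteases, squares for defensins, triangles for specific granule genes). On BN procainamide replicate 1, 8 of the 9 genes lie well below 0 and Ltf does not.

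Other exclusions also changed the BN count. Without BN procainamide replicate 3, Ltf reached 0.65 (adjusted p = 0.0147), and without replicate 4, Np4 reached -1.25 (0.0295). With log2 Cy5 alone, leaving the reference out, Ltf at 0.95 (adjusted p = 0.00361) and Mmp8 at 1.33 (0.00739) passed, while Elane, Prtn3 and Ctsg turned to 0.20, 0.25 and 0.24. The BN references read higher on slide 3 than on slide 2 for 8 of the 9 genes, by 0.55 for Ltf (8.46 against 7.91), for instance, and Lcn2 was the exception (11.39 against 11.41).

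In SD rats 0 of the 9 granule genes passed, against 3.18% of all named genes (1.43% higher and 1.75% lower). At an unadjusted p under 0.05 the count was also 0, against at least that 3.18%. None of the 9 had separate SD groups, while 4.37% of all genes were separate upward and 4.53% downward. Lcn2 had the highest value, with ratios of -0.31, 0.03, 0.15, 0.48 and 0.17 in controls and 0.43, 0.33, 0.77, 0.35 and 1.34 in procainamide rats. Only the highest control overlapped the treated arrays, and the response was 0.54 ± 0.34 (SE; 95% interval -0.17 to 1.25; adjusted p = 0.444). Mmp8 had ratios of -0.40, -0.27, 0.09, -0.46 and 0.29 in controls and -0.66, 0.25, -1.43, -0.65 and -0.58 in procainamide rats. Of the treated arrays 4 lay below all controls and 1 near the top, for a response of -0.46 ± 0.35 (SE; adjusted p = 0.551). The other 7 genes lay between -0.11 and 0.11.

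**Figure D5:**
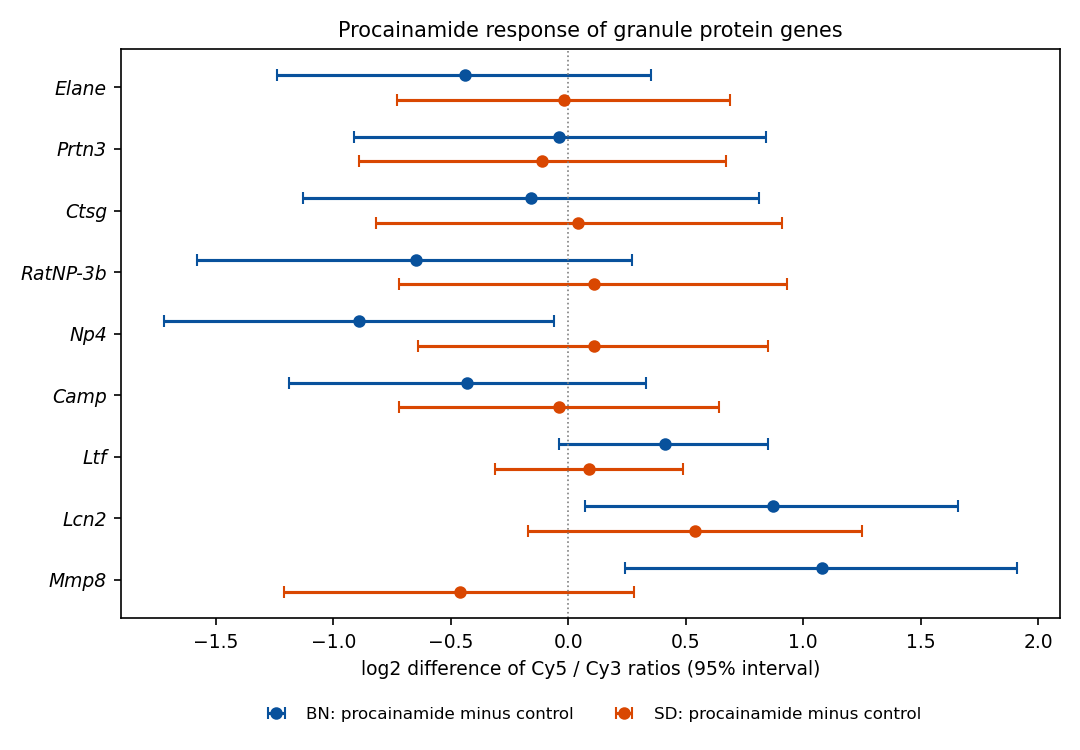
The horizontal axis is the procainamide response, treated minus control, as the log2 difference of Cy5 to Cy3 ratios, with 95% intervals from the limma fit, for the genes on the vertical axis in BN (blue) and SD (orange) rats. For Mmp8 the BN response is 1.08 and the SD response -0.46, and the intervals of the other genes overlap more widely.

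The difference between the strains' responses was tested directly, and 0 of the 9 genes passed, against 10.7% of all named genes (3.15% with a higher BN response and 7.52% with a lower one). At an unadjusted p under 0.05 the count was 1 of 9, against at least the 10.7% of all named genes that passed after adjustment. Mmp8 came closest, with a BN response higher than the SD response by 1.54 ± 0.53 (log2, SE; 95% interval 0.42 to 2.66; adjusted p = 0.0703). It passed without BN procainamide replicate 1 (2.00; adjusted p = 0.00572) and without SD procainamide replicate 2 (1.76; 0.0359). With array brightness as a term it was 0.40 (adjusted p = 0.854), and with scan day as a term 1.54 ± 0.92 (SE; 0.836). For Np4 the BN response was the lower one, with a 95% interval of -2.12 to 0.12 (adjusted p = 0.240). Since Ltf and Mmp8 passed between the strains under procainamide and not in controls, this test and not that contrast of calls bears on whether the strains responded differently. It holds the BN response, however, which could not be separated from slide, so it cannot settle that question.

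The genes varied in tight subsets within the groups. After each group's mean was removed from log2 Cy5, Pearson's r over the 18 arrays was 0.98 for RatNP-3b with Np4, 0.93 for Prtn3 with Ctsg, 0.92 for Elane with Prtn3 and 0.90 for Elane with Ctsg. Without BN procainamide replicate 1 these were 0.96, 0.87, 0.85 and 0.78. Defensins with proteases ran from 0.74 to 0.79, and from 0.52 to 0.63 without that array, and Camp with RatNP-3b was 0.77, falling to 0.64 without it. The specific granule genes did not form such a subset: its 6 pairs ran from -0.13 for Camp with Ltf to 0.47 for Camp with Lcn2, and from -0.06 to 0.35 without that array. The values share arrays and normalization, so they describe these samples only.

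Among 13643 other named genes, those whose group-centred signal followed the mean of the 3 proteases most closely were Abcg2 (r = 0.89 over 18 arrays), Serpinb2 (0.88), Eif4h (0.87), H4c14 (0.86) and Lyplal1 (0.86). Without BN procainamide replicate 1 these were 0.87, 0.83, 0.77, 0.87 and 0.75. For the defensins they were Defa5 (0.94), Defa11 (0.81), Ns5atp4 (0.80), Hacl1 (0.79) and Nf1 (0.76), and without that array 0.89, 0.74, 0.64, 0.63 and 0.62. For the specific granule genes they were Thap1 (0.90), Tpst1 (0.88), Lefty1 (0.88), Ndufa11 (0.88) and Gnptg (0.87), and without it 0.83, 0.82, 0.84, 0.85 and 0.89. All were picked as the highest of 13643 correlations, so the values are a ranking and were not tested. Some of these genes varied little. Their group-centred SD was 0.08 for Gnptg and Hacl1 and 0.09 for Eif4h and Ns5atp4, against 0.52 for Defa5.

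Other alpha-defensin genes were measured by 5 tested probes. In controls 4 of the 5 were higher in BN, against 16.3% of all named genes. Defa11 differed by 2.45 ± 0.34 (log2, SE; adjusted p = 7.21e-05) and Defa5 by 1.55 ± 0.35 (0.00245). Defa11 averaged 11.16 ± 0.72 (SD, n = 4) on the log2 Cy5 scale in BN controls and 8.71 ± 0.32 (SD, n = 5) in SD controls. Under procainamide Defa11 was higher in BN by 2.21 (adjusted p = 0.000389) and Defa5 by 1.29 (0.0163), while Defa6 at -0.50 (0.0356) and Defa24 at -0.46 (0.0159) were lower in BN. When scan day was fitted too, 0 of the 5 passed in controls, and Defa11 alone passed under procainamide (2.26; adjusted p = 0.00246). In the BN drug response Defa6 fell by 0.81 and Defa24 fell by 0.35 (adjusted p = 0.00176 and 0.0410), and with scan day as a term neither passed (-0.44 and -0.16; adjusted p = 0.490 and 0.805).

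Further contents of specific and gelatinase granules were tested as 15 genes. In controls 4 were higher in BN and 4 lower (median difference -0.09), against 16.3% and 20.5% of all named genes. Under procainamide 6 were higher and 1 lower (median 0.46), against 9.47% and 9.56%. Fitted with scan day, the list counts became 1 higher and 0 lower in controls, and 5 higher and 1 lower under procainamide. Hp, which encodes the haemoglobin-binding protein haptoglobin, averaged 13.19 ± 0.32 (SD, n = 4) in BN controls and 11.00 ± 0.26 (SD, n = 5) in SD controls on the log2 Cy5 scale. It was higher in BN by 2.19 ± 0.19 (SE; adjusted p = 6.56e-07) in controls and by 3.10 ± 0.19 (8.78e-09) under procainamide, and with scan day as a term by 2.57 (0.000283) and 2.95 (2.16e-07). Chi3l1, a chitinase-like protein, was lower in BN controls by a log2 difference of -1.01 (adjusted p = 0.00817) and higher in BN under procainamide by 1.01 (0.0173), and with scan day as a term neither passed (adjusted p = 0.429 and 0.0690). In the BN drug response 5 of these 15 genes rose and 1 fell, against 8.97% and 13.8% of all named genes. Chi3l1 stood at 1.51 (adjusted p = 0.00225) and Arg1 at -0.95 (0.00278), and in SD 0 of the 15 passed. The Cy5 signal of Arg1 alone moved less, from a mean of 9.17 in BN controls to 8.70 in BN procainamide rats. Fitted with scan day, 0 of the 15 passed in BN.

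Other azurophil and lysosomal genes were tested as 14 genes. In controls 1 was higher and 3 were lower in BN (median -0.24), a share below the 36.8% of all named genes that differed. Under procainamide 0 were higher and 3 lower in BN (median 0.04), against 9.47% and 9.56% of all named genes. Fitted with scan day, 0 of the 14 passed in controls and 1, lower in BN, under procainamide. Bpi, whose product kills Gram-negative bacteria, averaged 10.83 ± 0.21 in BN controls and 9.23 ± 0.72 in BN procainamide rats (SD, n = 4 each, log2 Cy5). It fell by 1.91 on the log2 scale in the BN drug response (adjusted p = 0.000221), and was lower in BN than in SD under procainamide (-1.56; 0.000435). After fitting scan day the latter passed (-1.48; adjusted p = 0.00409) and the BN response did not (-1.63; 0.125). Lyz2, which encodes lysozyme, rose by 1.29 in BN as a ratio (adjusted p = 0.00147), while its log2 Cy5 averaged 16.44 in BN controls and 16.78 in BN procainamide rats. In all, 0 of the 14 passed in BN once scan day was fitted.

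Mature neutrophil markers, which include receptors and oxidase subunits that stay expressed in circulating cells, were tested as 15 genes. In controls 3 of them differed, against 36.8% of all named genes: 1 was higher in BN (Fpr1, a formyl peptide receptor, at 0.99; adjusted p = 0.00212) and 2 were lower (Alox5ap at -0.83 and Ncf1 at -0.27; adjusted p = 0.00357 and 0.0325), with a median of -0.17, and fitted with scan day 0 of the 15 passed. The mean level of the list on the log2 Cy5 scale ranged from 12.09 to 12.72 over BN control arrays and from 12.25 to 12.92 over SD control arrays. Under procainamide 9.47% of all named genes were higher in BN and 9.56% lower. Of the 15 markers 5 were higher and 0 lower, with a median of 0.19. These were the chemokine receptor Cxcr2 at 1.28 (adjusted p = 0.00383), the decoy receptor Il1r2 at 1.47 (0.00696), S100a8 at 1.17 (0.00933), S100a9 at 1.21 (0.0197) and Mcemp1 at 1.60 (0.0210), the last pair named after their values were seen. With scan day as a term Cxcr2 (1.00; adjusted p = 0.0343) and Il1r2 (1.31; 0.0450) passed. In BN procainamide arrays the list level ranged from 12.33 to 13.11, and in SD procainamide arrays from 12.11 to 12.78. The part that the number of circulating neutrophils has in the granule gene values was not tested.

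Regulators of granule genes were tested as 12 genes, for transcription factors, cytokine receptors and the cytokine Csf3. In controls 1 was higher in BN (Csf3 at 0.55; adjusted p = 0.00752) and 0 were lower, against 16.3% and 20.5% of all named genes. With scan day fitted, 0 of the 12 passed there. In the BN drug response Gfi1, a repressor needed for neutrophil formation, rose by 0.64 (adjusted p = 0.00163), Cebpb rose by 0.56 (0.00319) and Irf8 rose by 0.54 (0.0211). Cebpe, which drives specific granule genes in late precursors, fell by 0.90 (adjusted p = 0.00884). In all, 3 of the 12 rose and 1 fell in BN, against 8.97% and 13.8% of all named genes. Fitted with scan day, 0 of the 12 passed in BN, and in SD 0 passed with or without it.

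Markers of other cells were counted in the same comparisons, without scan day in the model. Of all named genes, 16.3% were higher in BN controls, 13.8% fell in the BN drug response and 1.43% rose in the SD drug response. The BN drug response could not be separated from slide. Dividing cell markers, of which 6 were tested, had list levels of 13.00 to 14.07 in BN controls, 12.69 to 13.07 in SD controls and 13.17 to 13.57 in SD procainamide rats (log2 Cy5). Of the 6, 1 was higher in BN controls than in SD controls, and in the drug response 2 rose in SD and 0 passed in BN. Platelet genes were higher in BN controls for 5 of 7 tested, with list levels of 13.55 to 14.04 in BN controls and 13.00 to 13.31 in SD controls (log2 Cy5). Erythroid list levels were 13.92 to 15.86 in BN controls and 14.34 to 14.77 in SD controls, and 1 of 7 genes was higher in BN. In the BN drug response 4 of 7 platelet genes, 4 of 6 eosinophil genes and 5 of 7 gland and connective tissue genes were lower, with list levels of 10.48 to 11.60 in BN controls and 9.22 to 10.71 in BN procainamide rats for eosinophils. Their part in the granule gene values was not tested.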

How the data were processed

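RNA of 18 blood samples was hybridised to Agilent 2-colour arrays (design 028279), scanned and read with Feature Extraction 10.7.1.1, per the file headers. The deposited scanner files give spot intensity for Cy5 and Cy3 and a log10 ratio, whose direction is red over green. The authors' deposited value table holds log2 ratios. Its columns tracked the log2 Cy5 over Cy3 of the scanner's processed signals with a slope of 1.00, so scale and direction are known, and its column medians were -0.014 to 0.0653. The normalization behind it is not given in the sources used here.

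Median intensities were background-corrected (normexp, offset 50) and loess-normalized within arrays in limma 3.58.1 (R 4.3.3), with Aquantile between arrays for log2 Cy5. Spots of a probe were averaged, and the brightest probe stood for a gene. Probes well above background in Cy5 on at least 4 arrays were tested (26496 of 30367, of which 13652 named genes). One limma model with 4 group means (14 residual degrees of freedom) gave every comparison, 2-sided, with Benjamini-Hochberg adjustment over all tested probes and a threshold of 0.05. The fitting step was tried on simulated data with independent noise per probe and added group shifts. Those data held no slide or scan day effect, so the trial does not bear on either. Promoters were aligned with Biopython 1.88, and figures drawn with matplotlib 3.10.9. Precision is limited by how many arrays there are.

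The members and gene lists were chosen with earlier results of these data known. The text names all members, up to 6 genes of each other list by smallest p in any comparison, and the 5 genes most like each role group. Alternatives were other backgrounds, normalizations, filters, scan day, brightness, the replicate block and leaving out arrays. Replicate numbers did not pair the samples: the correlations of same-numbered deviations ran from -0.523 to 0.234 over the group pairs.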

Additional observations from a re-analysis of the deposited data

Results flagged for a closer look

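BN procainamide replicate 1 lay apart from the other 3 arrays of its group in 3 protease genes on both scales, out of 72 groups of arrays examined in this way. Chance alone gives such a value in about 1 in 20 groups. Its log2 ratios were -2.20 for Elane, -1.80 for Prtn3 and -2.39 for Ctsg, and its log2 Cy5 values 7.38, 9.14 and 8.81.

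In 8 other genes the strains differed in their drug response by limma's test of the difference (BN response minus SD response, log2). The BN part of this difference could not be separated from slide. The 8 genes were named from the gene lists by smallest p, among probes well above background on all 18 arrays. Over the whole lists the same test called 1 higher and 1 lower of 14 azurophil and lysosomal genes. It called 2 higher of 15 specific and gelatinase granule genes and 2 lower of 5 alpha-defensins. The rest were 1 higher of 12 regulators, 1 higher of 15 mature neutrophil markers and 1 lower of 11 oxidase and peroxidase genes. Of 11 inhibitors 0 passed, and of all named genes 10.7% did. The response was higher in BN for Chi3l1 (1.81; adjusted p = 0.00934), Cxcr2 (1.60; 0.0132), Cebpb (0.76; 0.00622) and Man2b1 (0.49; 0.0280). It was lower in BN for Bpi (-1.43; adjusted p = 0.0191), Duox2 (-1.08; 0.00163), Defa6 (-1.05; 0.00507) and Defa24 (-0.51; 0.0460). When scan day was a term, 0 of all 26496 probes passed this test, and these 8 values were 2.10, 0.69, 0.32, 0.15, -1.04, -0.74, -0.53 and -0.24 in the same order.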

How the results depend on the processing

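The control strain count of 7 genes became 0 with scan day as a term. It was 5 with array brightness as a term and 5 to 7 without single arrays. The count of 9 under procainamide ran from 6 to 9 without single arrays. It was 7 with the replicate block, with brightness or with only the groups compared: RatNP-3b (1.30; adjusted p = 0.0510) and Np4 (1.04; 0.0599) missed the threshold with the block, which changed no other call. The BN drug response count of 0 became 1 with Agilent's processed signals (Mmp8 at 1.40; adjusted p = 0.0371), 2 with log2 Cy5 alone and 0 to 2 without single arrays. The count of 0 for the difference in response became 1 with the processed signals (Mmp8 at 2.02; 0.0463), 2 with log2 Cy5 alone (Ltf at 1.01; 0.0177, and Mmp8 at 1.80; 0.00832) and 0 to 1 without single arrays. The SD count stayed 0 under every alternative run.

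Signs turned for values that had not passed. In BN with log2 Cy5 alone Elane, Prtn3, Ctsg and Camp read 0.20, 0.25, 0.24 and 0.00, and with median centring Prtn3 read 0.04. In SD with scan day as a term or within slide 1 RatNP-3b, Np4 and Camp read -0.07, -0.13 and 0.04, with brightness Elane, Prtn3 and Camp read 0.27, 0.21 and 0.08, with log2 Cy5 alone Ctsg and Ltf read -0.05 and -0.06, and with median centring Elane read 0.02. For the difference in response Prtn3 read -0.12 with scan day and -1.11 with brightness, and with log2 Cy5 alone Elane, Ctsg and Camp read 0.43, 0.29 and 0.20. Mmp8 in controls read -0.03 with the processed signals. Without single arrays the ranges that cross 0 were -0.66 to 0.10 for Elane, -0.32 to 0.51 for Prtn3, -0.43 to 0.50 for Ctsg and -0.75 to 0.00 for Camp in BN. In SD they were -0.15 to 0.05 for Elane, -0.12 to 0.17 for Ctsg, 0.00 to 0.33 for RatNP-3b, -0.02 to 0.32 for Np4 and -0.12 to 0.08 for Camp. For the difference in response they were -0.64 to 0.12 for Elane, -0.20 to 0.63 for Prtn3, -0.48 to 0.45 for Ctsg, -0.71 to 0.04 for Camp and -0.02 to 0.67 for Lcn2, and for Mmp8 in controls -0.06 to 0.25. The cause was not tested. Counts over all probes moved by over 1.5 times with scan day (10198 to 372 in controls, 5768 to 211 in BN, 5256 to 2627 under procainamide, 727 to 254 in SD, 2952 to 0 for the difference). With brightness they were 2782, 685, 2889, 425 and 6 in the same order, and the median BN response of the 9 genes moved from -0.16 to -0.91. The replicate block gave 3584 in BN, 3395 under procainamide, 129 in SD and 1386 for the difference, and the groups compared alone gave 2800, 2743 and 1482 in BN, under procainamide and in SD. With log2 Cy5 alone 10191 passed in BN and 9119 for the difference, and 43.0% of the latter were higher, against 23.2%. Within slide 1, 339 passed in SD. The processed signals moved the share of higher calls under procainamide from 42.0% to 29.6%.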

Other observations

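Tissue inhibitors of the collagenases that granules release changed in both strains. Timp1 averaged a log2 ratio of 0.14 ± 0.18 (SD, n = 4) in BN controls and 1.12 ± 0.63 (SD, n = 4) in BN procainamide rats, and 0.02 ± 0.21 and 1.12 ± 0.31 (SD, n = 5 each) in the SD groups. It rose by 0.97 ± 0.24 (SE; adjusted p = 0.00751) in BN and by 1.11 ± 0.21 (0.0103) in SD. Timp2 fell by 0.50 (adjusted p = 0.00269) in BN and fell by 0.45 (0.0148) in SD. Its Cy5 signal alone moved less, from a mean of 15.49 to 15.25 in BN and from 15.67 to 15.38 in SD. By the ratio, all treated arrays lay above all controls for Timp1 and below all controls for Timp2 in both strains. Of all named genes, 8.18% were separate upward and 11.8% downward in BN, and 4.37% and 4.53% in SD. Once scan day was fitted, Timp2 passed in SD (-0.48; adjusted p = 0.0469), while Timp1 in SD (1.10; 0.0511) and both genes in BN (0.99 and -0.43; 0.310 and 0.307) did not. In all, 2 of 11 inhibitor genes passed in SD and 4 of 11 in BN, against 3.18% and 22.8% of all named genes.

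Oxidase and peroxidase genes other than Mpo gave 2 higher and 2 lower of 11 in the BN drug response, against 8.97% and 13.8% of all named genes. The oxidase subunits Ncf1 (0.55; adjusted p = 0.00547) and Cyba (0.53; 0.00890) rose, and Gpx1 (-0.57; 0.0211) and Duox2 (-0.70; 0.000985) fell. For Gpx1 the fall was in the ratio to the reference only: its log2 Cy5 averaged 15.12 in BN controls and 15.25 in BN procainamide rats. For Cyba the Cy5 means were 15.76 and 16.03, a smaller rise than in the ratio. In SD 0 of 11 passed. With scan day as a term 0 of 11 passed in BN.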
